A study of Mus musculus with 2 samples.

Results

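A set of 10 genes best known from embryonic stem (ES) cells was followed in mouse PS10 cells, a line of extraembryonic endoderm stem (XEN) cells, after an oligonucleotide against the antisense RNA Gata6-AS was transfected. They are Pou5f1, Nanog, Sox2, Lin28a, Lin28b, Utf1, Tcfcp2l1 (the older symbol of Tfcp2l1), Tbx3, Klf4 and Klf5, picked by name from 26061 gene symbols in the expression table. They were picked with earlier results of these data known. Shares and medians over all genes, given beside theirs, therefore describe the set and do not test it. PS10 is a female line of ICR strain, and both groups are this same line. One culture received a locked nucleic acid (LNA) directed at Gata6-AS and the other a control LNA, each with Lipofectamine RNAiMax. Total RNA of each was sequenced as 1 library per group, so no value has a replicate check and every difference compares these 2 libraries, not the conditions. The sources used here give no time after transfection, and the sample titles call the reagents siRNA. In bulk RNA, fewer cells of a type and less RNA per cell cannot be told apart. Levels are RPKM, reads per kilobase of gene and per 1000000 reads, which allows levels to be compared between genes.

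XEN cells are a culture form of the primitive endoderm, the sister lineage of the pluripotent epiblast in the late mouse blastocyst. In the epiblast and in ES cells, POU5F1 (OCT4), SOX2 and NANOG occupy many of the same regulatory regions and hold the pluripotent state. KLF4, KLF5, TBX3 and TFCP2L1 connect that core to LIF, STAT3 and other signals, UTF1 is a chromatin-associated factor of undifferentiated cells, and LIN28A and LIN28B are RNA-binding proteins that stop the precursors of let-7 microRNAs from maturing. Several of these genes are also used outside pluripotent cells, so their RNA alone does not mark an ES cell.

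The cells carried the markers of XEN cells in both libraries. All 8 XEN markers (Gata4, Gata6, Sox7, Sox17, Pdgfra, Dab2, Foxa2 and Sall4) had at least 30.6 RPKM with the control LNA and at least 24.7 RPKM with the Gata6-AS LNA. Their summed level was 824 RPKM under the control LNA against 573 RPKM under the Gata6-AS LNA. In the latter 6 of the 8 were lower, as were 4555 of 10853 genes that averaged 1 RPKM or more. Sox7 was furthest from control, at 40.9%, while Dab2 and Foxa2 were higher, at 140% and 102%. Gata6-AS (listed as 1010001N08Rik) was at 57.8% of control and Gata6 at 68.0%. Those genes overlap at their ends, and the sources used here do not say whether counting used strand, so reads in the shared bases cannot be told apart. The steps between RPKM values correspond to 1.04e+08 reads for the control LNA and 1.23e+08 reads for the Gata6-AS LNA. Markers of other cell types were low: 9 of 10 ES or epiblast markers, 7 of 8 trophoblast markers, 7 of 8 fibroblast feeder markers and 6 of 6 germ cell markers lay under 1 RPKM in both libraries. Low values are common in these data, as 10853 of all 26061 symbols averaged 1 RPKM or more, small RNAs left out. The ES or epiblast list summed to 5.16 RPKM with the control LNA and 5.75 RPKM with the Gata6-AS LNA. Nanog made up 4.61 and 5.07 RPKM of these sums, and Sox2, Esrrb, Tdgf1 and Nr0b1 were listed at 0 in both. The trophoblast list summed to 1.10 and 1.78 RPKM (Hand1 and Tpbpa at 0), with Cdx2 at 0.653 and 1.19 RPKM, and the feeder list to 3.87 and 4.68 RPKM (Col3a1, Thy1 and Twist1 at 0), with Pdgfrb at 3.82 and 4.61 RPKM. The germ cell list summed to 0.102 and 0.0720 RPKM. The part of such cells in the values below was not tested.

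The 10 genes fell into a pair with hardly any reads, a set with higher values in the Gata6-AS library, and a set with like values in both. Pou5f1 and Sox2 were at or near 0. Lin28a, Lin28b, Utf1, Tcfcp2l1 and Tbx3 were each at least 1.5-fold higher by the plain RPKM ratio, a rule chosen after the values were seen. These are 5 of the 9 genes above 0 in both libraries, against 13.7% of all 17247 such genes, many of them low. Among genes that averaged 1 RPKM or more, 4 of 7 passed it, against 6.02%. Nanog, Klf4 and Klf5 were near control, at 110%, 90.1% and 97.6%. In the control library the order of levels from the top was Klf5, Lin28a, Klf4, Tcfcp2l1, Tbx3, Nanog, Utf1, Lin28b, Pou5f1 and Sox2. In the Gata6-AS library Lin28a stood above Klf5. Nanog and Utf1, which were 2.42 times apart in the control library, could not be told apart in the Gata6-AS library, where their 95% Poisson intervals, which take the least reads each value allows, overlapped (4.81 to 5.34 RPKM for Nanog and 4.70 to 5.42 RPKM for Utf1). All other neighbours in the order had intervals that did not overlap in either library, with Sox2 left out because it has no reads.

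**Figure D1:**
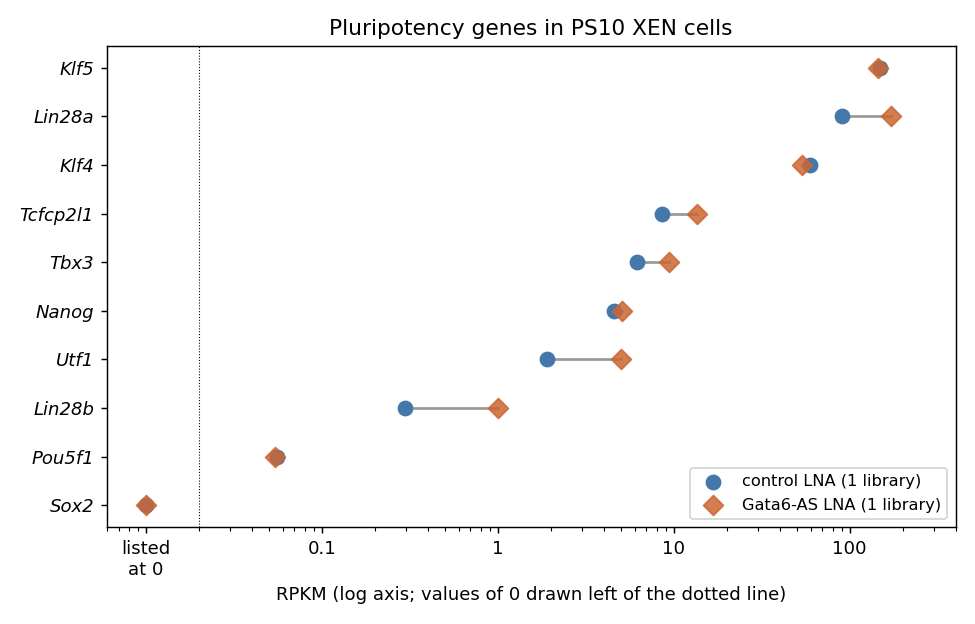
RPKM of the 10 pluripotency genes in the control library (circles) and the Gata6-AS LNA library (diamonds), on a log axis, 1 library per group, ordered by the control level. Lin28a moves from 90.0 to 173 RPKM and passes Klf5, while the symbols of Pou5f1, Nanog, Klf4 and Klf5 nearly coincide and Sox2 is listed at 0 in both.

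Size rules of 2-fold and 1.5-fold were applied to log2(RPKM + 1) with the Gata6-AS LNA minus that with the control LNA. They took in genes that averaged 1 RPKM or more, called tested here although no statistical test was possible. Of the 10 genes, 7 met this minimum, and Pou5f1, Sox2 and Lin28b did not. One of the 7, Utf1, was at least 2-fold higher, against 0.332% of 10853 genes tested, and none was at least 2-fold lower, against 0.451%. At 1.5-fold, 3 of the 7 were higher (Utf1, Lin28a and Tcfcp2l1), against 3.43% of all genes tested, and none was lower, against 1.94%, or 5.37% in either direction. The median difference of the 7 was 0.53, with 5 above 0 and 2 below, where all genes tested had a median of 0.05 and 58.0% above 0. Over all 10 genes whatever their level the median was 0.32. In the authors' deposited table of 2099 genes with a p below 0.075, 5 of the 10 were listed, each as higher in the Gata6-AS library (Lin28a, Lin28b, Utf1, Tcfcp2l1 and Tbx3), against 4.14% of all symbols listed as higher. None was listed as lower, against 3.89%. Among the genes tested the shares were 6.23% higher and 5.69% lower, and 4 of the 7 were listed as higher. These p-values come from 1 library per group, and the sources used here do not name the test.

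**Figure D2:**
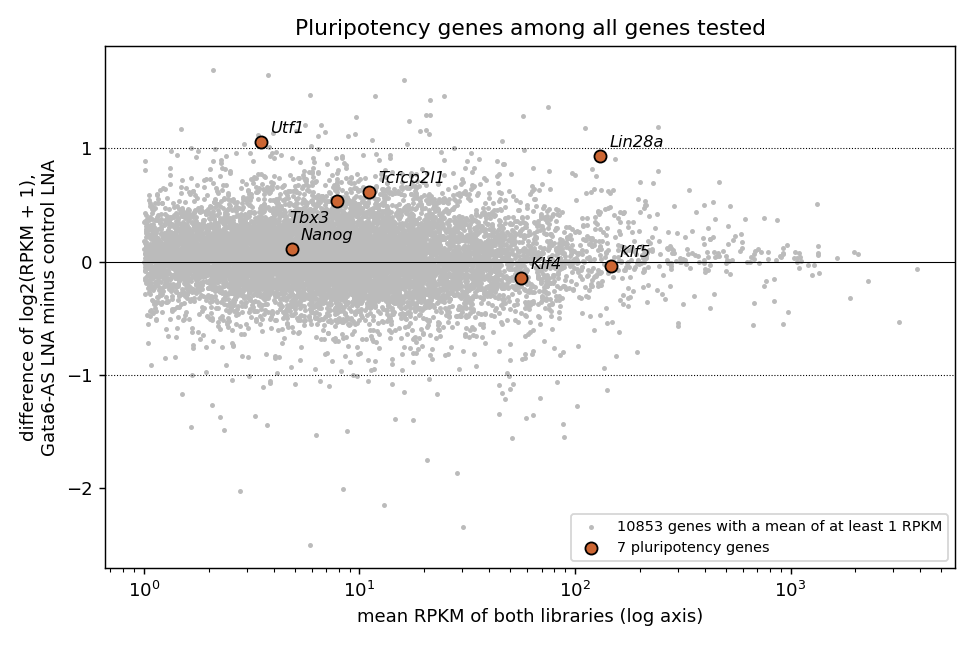
Difference of log2(RPKM + 1), Gata6-AS LNA minus control LNA, against the mean RPKM of both libraries on a log axis, for 10853 genes tested (grey) and the 7 pluripotency genes among them (orange). Dotted lines mark a 2-fold difference. Utf1 lies above the upper line at 1.06 and Lin28a just under it at 0.93, with 54 of the 10853 genes above it, while Nanog, Klf4 and Klf5 lie in the dense band around 0.

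Pou5f1, which encodes the POU factor at the centre of the pluripotency network, was close to undetected (mm9, chr17:35642982-35647721, plus strand). It had 0.0556 RPKM under the control LNA against 0.0541 RPKM under the Gata6-AS LNA, from at least 13 and 15 reads. The ratio was 97.2% of control with an exact 95% interval of 43.1% to 222%, so a difference inside that interval was not detectable at this depth. RefSeq lists several Pou5f1 pseudogenes, and the sources used here do not say how reads shared with such copies were assigned. Among the other POU family genes, 12 of 13 were under 1 RPKM in both libraries, where 10853 of 26061 symbols were tested. The exception, Pou2f1 (OCT1), a widely expressed factor, had 5.75 RPKM with the control LNA and 4.88 RPKM with the Gata6-AS LNA.

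Sox2, the high mobility group partner of POU5F1, was listed at 0 in both libraries (mm9, chr3:34548927-34551383, plus strand). For a gene of its 2457 bases, a count of 0 allows up to 0.0118 RPKM under the control LNA against 0.00993 RPKM under the Gata6-AS LNA at 3 reads, which covers counting error only. Sox2 lies wholly inside the noncoding gene Sox2ot on the same strand, which had 0.0291 RPKM and 0.0283 RPKM. Of 596 genes nested in this way, 34.9% were listed at 0 in both libraries and 25.2% had a mean of at least 1 RPKM, against 27.4% and 42.0% of the other genes. Whether nesting lowered the count of Sox2 was not tested.

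Nanog, the homeobox factor that opposes primitive endoderm in the blastocyst, was present at 4.61 RPKM with the control LNA and 5.07 RPKM with the Gata6-AS LNA (mm9, chr6:122657507-122664651, plus strand). The Gata6-AS library value was 110% of control (exact 95% interval 101% to 119%, from at least 1071 and 1398 reads), a difference of 0.11 on the log2(RPKM + 1) scale. Of all genes tested, 4197 had a more positive difference, so Nanog lay in the middle of the distribution. Of the 10 genes in the ES or epiblast marker list it was the one above 1 RPKM. RefSeq lists the pseudogenes Nanog-ps1 and Nanog-ps2, and reads that match both Nanog and a copy are uncertain for the same reason. Its nearest expressed neighbours differed from each other. Gdf3, a TGF-beta family ligand gene to its left, was at 107% of control, with 2.14 and 2.29 RPKM. Slc2a3, a glucose transporter gene that lies 13176 bases to its right, was at 174% of control, with 178 and 309.5 RPKM.

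Lin28a had the largest gain in RPKM of the 10 genes (mm9, chr4:133559245-133574756, minus strand). Its level was 90.0 RPKM under the control LNA against 173 RPKM under the Gata6-AS LNA. That is 192% of control (exact 95% interval 189% to 195%, from at least 22717 and 51671 reads) and a difference of 0.93 on the log2(RPKM + 1) scale, which 54 of 10853 genes tested exceeded. By level, Lin28a ranked 411 of 26061 symbols in the control and 211 in the Gata6-AS library. In the authors' deposited table its log2 difference was 0.95 (p = 0.00181). The gene model Gm13061 lies on the opposite strand across the start of Lin28a and shares 695 bases with it. Gm13061 had 2.92 RPKM with the control LNA and 5.52 RPKM with the Gata6-AS LNA, 189% of control (160% to 224%), so its reads and those of Lin28a cannot be told apart if counting ignored strand. Its level was far below that of Lin28a in both libraries. The nearest expressed genes on either side, Dhdds and Sh3bgrl3, were at 111% and 98.9% of control.

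Lin28b, the paralogue of Lin28a, was far lower in level and further from control in ratio (mm9, chr10:45096426-45206201, minus strand). It had 0.297 RPKM under the control LNA against 0.999 RPKM under the Gata6-AS LNA, 336% of control (exact 95% interval 294% to 385%, from at least 279 and 1113 reads). Its mean of 0.648 RPKM kept it out of the genes tested, and on the log2(RPKM + 1) scale, which shrinks the differences of low genes, it stood at 0.62. The authors' deposited table gave a log2 difference of 1.63 (p = 9.22e-05), the smallest p of the 5 listed genes. Lin28a remained the dominant paralogue, at 303 times the RPKM of Lin28b in the control and 173 times in the Gata6-AS library. Its nearest expressed neighbour, Prep, lies 217623 bases away and was at 135% of control.

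Utf1 had the most positive log2(RPKM + 1) difference of the 10 genes (mm9, chr7:147129688-147131011, plus strand). This short gene had 1.90 RPKM with the control LNA and 5.05 RPKM with the Gata6-AS LNA. The ratio was 265% of control (exact 95% interval 229% to 308%, from at least 242 and 762 reads), and the difference of 1.06 was exceeded by 30 of 10853 genes tested. In the authors' deposited table the log2 difference was 1.27 (p = 0.00132). Its expressed neighbours Nkx6-2 and Tubgcp2 were at 77.6% and 82.4% of control.

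Tcfcp2l1, a CP2 family factor that supports self-renewal of ES cells downstream of LIF, had 8.54 RPKM under the control LNA against 13.6 RPKM under the Gata6-AS LNA (mm9, chr1:120524522-120581744, plus strand). It reached 159% of control (exact 95% interval 155% to 165%, from at least 5962 and 11288 reads), a difference of 0.62. The authors' deposited table gave 0.68 on its log2 scale (p = 0.0129). Both tested relatives of the CP2 and grainyhead family were near their control values. Tcfcp2 (Tfcp2) had 2.47 and 2.46 RPKM, and Ubp1 had 16.4 and 15.2 RPKM. Grhl1, Grhl2 and Grhl3 were under 1 RPKM in both libraries. Grhl1 was higher within that low range, at 0.0993 and 0.309 RPKM (at least 36 and 133 reads), and is listed as higher in the authors' deposited table.

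Tbx3, a T-box repressor with roles in both self-renewal and extraembryonic endoderm, had 6.22 RPKM with the control LNA and 9.45 RPKM with the Gata6-AS LNA (mm9, chr5:120120678-120134733, plus strand). That is 152% of control (exact 95% interval 146% to 158%, from at least 3458 and 6235 reads) and a difference of 0.53, just under the 1.5-fold rule on the log2(RPKM + 1) scale. In the authors' deposited table its log2 difference was 0.56 (p = 0.0378). The gene model Gm2301 on the opposite strand shares 697 bases with it and had 0.485 and 0.932 RPKM, 192% of control (143% to 259%). If counting ignored strand, reads of Gm2301 and Tbx3 in the shared bases cannot be told apart. Of 16 other T-box genes, 14 were under 1 RPKM in both libraries, where 10853 of 26061 symbols were tested. Mga, a MAX partner that carries a T-box domain, had 6.83 and 6.58 RPKM, above Tbx3 with the control LNA and below it with the Gata6-AS LNA, and Tbx18 had 1.59 and 1.75 RPKM.

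Klf4 and Klf5, zinc finger factors that share target sites in ES cells, were abundant and close to their control values. Klf4 (mm9, chr4:55540013-55545347, minus strand) had 59.2 RPKM under the control LNA against 53.4 RPKM under the Gata6-AS LNA, 90.1% of control (exact 95% interval 86.6% to 93.8%). Klf5 (mm9, chr14:99697910-99712624, plus strand) had 148 RPKM and 145 RPKM, 97.6% of control (96.0% to 99.2%). Both intervals lie below 100%, but they cover counting error only, and the differences of -0.15 and -0.03 were within the bulk of all genes tested. Neither gene was in the authors' deposited table. In rank of level, Klf5 was at 233 of all symbols in the control and 255 in the Gata6-AS library, and Klf4 at 697 and 776.

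**Figure D3:**
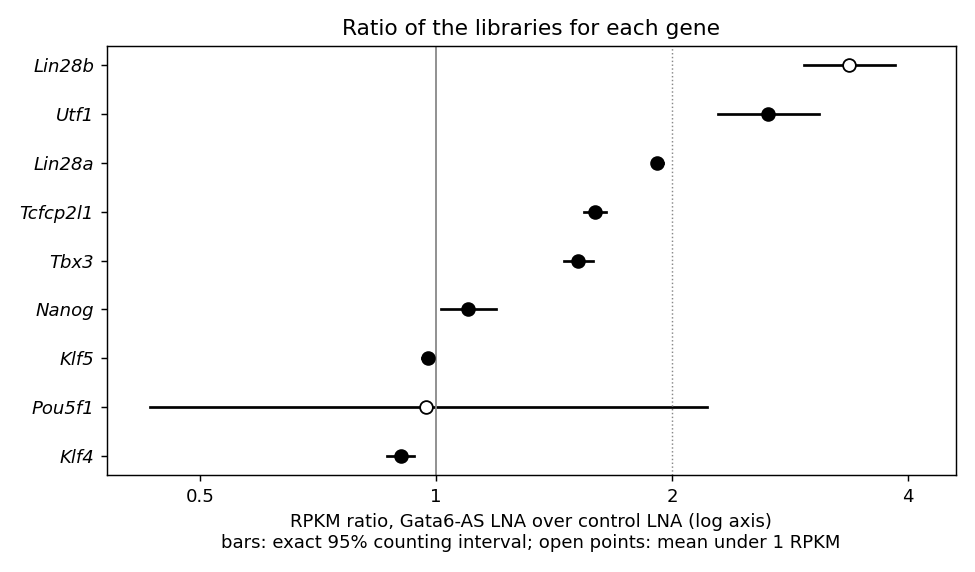
Ratio of RPKM, Gata6-AS LNA over control LNA, for the 9 genes with reads, on a log axis with exact 95% counting intervals (1 library per group), and open points for means under 1 RPKM. Lin28b at 3.36 and Utf1 at 2.65 lie above the dotted 2-fold line, Lin28a lies just under it at 1.92, and the interval of Pou5f1 spans both sides of 1.

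The promoters of the 4 genes with the largest ratios are shown because these genes were higher together. Each window runs from 250 bases before to 50 bases after a RefSeq start (GRCm38.p6, from the first start listed for each gene), 5′ to 3′ on the gene's strand, with motif matches in capitals. They are chr4:134018767-134019066 (minus) for Lin28a, chr10:45470152-45470451 (minus) for Lin28b, chr7:139943606-139943905 (plus) for Utf1 and chr1:118627695-118627994 (plus) for Tcfcp2l1.
Lin28a: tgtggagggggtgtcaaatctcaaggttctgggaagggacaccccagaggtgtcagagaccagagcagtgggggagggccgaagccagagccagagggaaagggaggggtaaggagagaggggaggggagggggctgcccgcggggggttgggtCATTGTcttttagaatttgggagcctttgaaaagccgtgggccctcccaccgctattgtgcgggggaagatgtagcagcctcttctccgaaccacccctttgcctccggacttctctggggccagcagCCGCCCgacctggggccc
Lin28b: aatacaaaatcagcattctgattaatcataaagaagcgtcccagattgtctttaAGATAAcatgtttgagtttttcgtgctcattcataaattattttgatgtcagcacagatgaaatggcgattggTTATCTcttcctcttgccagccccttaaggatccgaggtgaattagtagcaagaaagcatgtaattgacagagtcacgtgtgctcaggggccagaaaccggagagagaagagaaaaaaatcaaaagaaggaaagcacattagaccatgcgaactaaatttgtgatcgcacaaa
Utf1: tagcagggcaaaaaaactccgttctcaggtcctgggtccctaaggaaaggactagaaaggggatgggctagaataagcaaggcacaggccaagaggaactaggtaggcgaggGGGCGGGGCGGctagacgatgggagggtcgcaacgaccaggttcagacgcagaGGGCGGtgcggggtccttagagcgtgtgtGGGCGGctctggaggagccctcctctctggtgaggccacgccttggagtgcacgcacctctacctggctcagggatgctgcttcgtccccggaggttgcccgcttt
Tcfcp2l1: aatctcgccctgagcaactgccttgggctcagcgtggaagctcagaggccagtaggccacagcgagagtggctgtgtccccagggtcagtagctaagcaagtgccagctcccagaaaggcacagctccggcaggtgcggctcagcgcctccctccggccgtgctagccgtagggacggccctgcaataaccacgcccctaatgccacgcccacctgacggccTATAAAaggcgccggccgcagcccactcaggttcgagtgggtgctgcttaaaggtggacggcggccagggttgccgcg
The 6 motifs searched on both strands were AGATAA and TGATAA for GATA factors, the GC box GGGCGG bound by KLF and SP factors, the octamer ATGCAAAT of POU factors, CATTGT for SOX factors and TATAAA. Utf1 has 4 GC boxes, at -138, -133, -85 and -56 from the start, of which the first pair overlaps. Lin28a has 1 GC box at 33 and 1 SOX match at -96. Lin28b has 2 AGATAA matches, at -196 and -123, and a GC content of 39.0%, where the median of 27025 promoters is 52.7%. The windows of Lin28a, Utf1 and Tcfcp2l1 lie above that median, at 63.3%, 62.0% and 65.3%. Tcfcp2l1 has a TATAAA at -28 and none of the other motifs.

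No motif was common to the 4 genes. Among the 8 of 10 genes with a promoter entry, 5 held a GC box (35.9% of all promoters of this length do), 1 held AGATAA (11.4%), none held TGATAA (9.26%), 2 held CATTGT (12.8%), 1 held TATAAA (14.2%) and none held the octamer (1.75%). Klf4, whose level was 90.1% of control, has 4 GC boxes, as Utf1 does. Tbx3 and Klf5 had no entry. The shares over all promoters were not matched for GC content. A match describes letters in the window and does not show that a factor binds.

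LIN28 proteins act on let-7, and genes of that axis lay on both sides of 0. The 8 let-7 microRNAs with a mature 5p sequence in RefSeq share the seed GAGGUAG (bases 2 to 8, capitals), shown here for 2 of them, beside a site for it from the 3′ untranslated regions of Lin28a, Lin28b and Hmga2 (8-base match in capitals, GENCODE M21 transcripts, the first such site of each).
mmu-let-7a-5p: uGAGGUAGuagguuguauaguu
mmu-let-7g-5p: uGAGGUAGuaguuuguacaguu
Lin28a: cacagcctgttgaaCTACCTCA
Lin28b: cccgggcgggaagtCTACCTCA
Hmga2: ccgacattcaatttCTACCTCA
The 8-base site CTACCTCA occurs 2 times in the 3′ untranslated region of Lin28a and 1 time in that of Lin28b, and in none of the other 8 pluripotency genes. Mature microRNAs were not measured here.

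Of 16 tested genes of the LIN28 and let-7 list, 8 were above 0 and 8 below, with a median of -0.01. None was 2-fold different, and 2 were at least 1.5-fold higher and none lower, where 3.43% and 1.94% of all genes tested were. They are Dusp12, a phosphatase gene, at 4.13 RPKM with the control LNA and 7.87 RPKM with the Gata6-AS LNA, and Hmga1, at 35.9 and 55.1 RPKM. Hmga2, a chromatin protein gene and a classical let-7 target, was lower, at 20.2 RPKM under the control LNA against 13.3 RPKM under the Gata6-AS LNA (-0.57). Igf2bp2, which encodes an RNA-binding protein and is also a let-7 target, had 37.1 and 26.4 RPKM (-0.48). The uridylyltransferase genes Zcchc11 and Zcchc6, whose products tail let-7 precursors bound by LIN28A, were at 79.6% and 90.8% of control, and the nuclease gene Dis3l2, whose product degrades the tailed precursors, at 135%. These 3 were named after their values were seen. Of all tested genes with a GENCODE transcript (10114 of 10853), 350 had at least 1 CTACCTCA in the 3′ untranslated region, and their median difference was 0.05, as it was for the 9093 genes without even the 7-base site CTACCTC. None of the 350 was 2-fold different. The 21 of them with at least 2 such sites, Lin28a included, had a median difference of 0.14. Of these 21, 15 (71.4%) were above 0, where 58.6% of the 350 were. The set is small, and a link between sites and differences was not tested.

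LIF, its receptor subunits and STAT3, which lie upstream of Tcfcp2l1 and Klf4 in ES cells, had lower values with the Gata6-AS LNA. In the LIF and STAT3 list, 8 of 13 tested genes were below 0 and 5 above, with a median of -0.23 against 0.05 for all genes tested, and 3 were at least 1.5-fold lower and 1 higher, where 1.94% and 3.43% of all genes tested were. The receptor subunit gene Il6st (gp130) had 12.4 RPKM with the control LNA and 6.99 RPKM with the Gata6-AS LNA (-0.75), and its partner Lifr had 24.3 and 15.3 RPKM (-0.63). Socs3, a feedback inhibitor and STAT3 target, had 22.9 and 13.6 RPKM (-0.71). Lif (10.1 and 7.08 RPKM) and Stat3 (30.1 and 21.4 RPKM), named after their values were seen, were also lower, at 69.9% and 71.3% of control. The kinase gene Pim2 was on the other side, at 1.10 RPKM under the control LNA against 3.18 RPKM under the Gata6-AS LNA (0.99). The remaining genes above 0, also named after their values were seen, were Pim3, Pim1, Tyk2 and Socs1, at 118%, 115%, 113% and 103% of control. Of these 14 list genes the authors' deposited table lists 5 as lower and 1 as higher, where it lists 3.89% and 4.14% of all symbols.

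Other members of the KLF family went both ways. Of 9 tested genes beside Klf4 and Klf5, 6 were below 0 and 3 above, with a median of -0.19. All genes tested had a median of 0.05 and 58.0% above 0. At 1.5-fold, 2 of the 9 were higher and 2 lower, against 3.43% and 1.94% of all genes tested. Klf3 had 12.8 RPKM with the control LNA and 6.83 RPKM with the Gata6-AS LNA (-0.81), and Klf13 had 15.7 and 8.87 RPKM (-0.76). Klf15 had 1.35 and 3.48 RPKM (0.93), and Klf16 had 9.996 and 16.7 RPKM (0.69). Klf2, the family member that with Klf4 and Klf5 supports naive ES cells, was at 0.136 and 0.225 RPKM. Summed over the 15 family genes other than Klf4 and Klf5, the level was 166 RPKM under the control LNA against 159 RPKM under the Gata6-AS LNA.

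**Figure D4:**
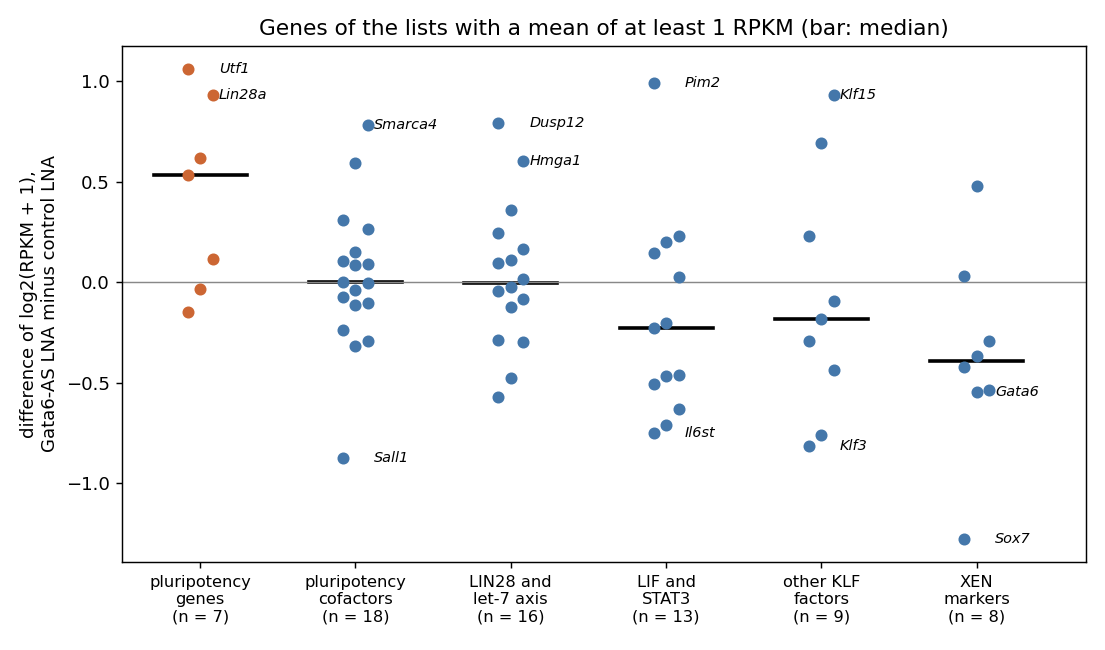
Difference of log2(RPKM + 1), Gata6-AS LNA minus control LNA, for the genes that averaged 1 RPKM or more in 6 lists; each point is a gene, the bar is the list's median, and the 2 genes with the largest differences in size are named where they do not overlap. The pluripotency genes have a median of 0.53, the LIF and STAT3 list of -0.23 and the XEN markers of -0.39.

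Most genes of the naive and primed pluripotency lists were under 1 RPKM in both libraries. In the naive list, 16 of 18 genes were under 1 RPKM in both, and 5 (Esrrb, Nr0b1, Prdm14, Tcl1 and Tdgf1) were listed at 0 in both. Such values are common. Of 25465 genes not nested in another, 27.4% were listed at 0 in both, so 5 of 18 is near that share. Of the same genes, 42.0% had a mean of at least 1 RPKM. The exceptions were Fbxo15, a classical ES cell reporter gene, at 42.3 RPKM with the control LNA and 37.8 RPKM with the Gata6-AS LNA, and Tcfe3 (Tfe3), at 105% of control with 7.88 RPKM after the Gata6-AS LNA. Dppa4 was the naive gene in the authors' deposited table, as higher, but it rests on at least 2 and 17 reads (0.0126 and 0.0901 RPKM). In the primed epiblast list, 10 of 14 genes were under 1 RPKM. Dnmt3b, a DNA methyltransferase gene, had 6.45 RPKM under the control LNA against 9.75 RPKM under the Gata6-AS LNA (0.53), while Sall2, Gdf3 and Zic2 differed by -0.07, 0.07 and 0.00.

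Genes of the pluripotency cofactor list were all above 1 RPKM, 18 of 18, and spread around 0. Of all 26061 symbols, 10853 were tested. The list was drawn up as one of broadly expressed cofactors, so such levels were likely from the start. It is not limited to genes that many cells express, and it holds the XEN marker Sall4. Of the 18 genes, 8 were above 0 and 10 below, with a median of -0.00. At 1.5-fold, 2 were higher and 1 lower, against 3.43% and 1.94% of all genes tested. Smarca4 (BRG1), the ATPase of the esBAF remodelling complex, had 12.4 RPKM with the control LNA and 22.1 RPKM with the Gata6-AS LNA (0.78). Mycn had 24.8 and 37.9 RPKM (0.59). Sall1, a zinc finger gene, had 15.6 and 8.02 RPKM (-0.88), and Arid1a, another esBAF subunit gene, was at 78.0% of control (-0.32).

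Genes with the levels most like those of each pluripotency gene were found by the distance in log2(RPKM + 1) over the 2 libraries. For Lin28a they were Nt5dc2 (93.3 and 158 RPKM, distance 0.14) and S100a11 (87.0 and 154 RPKM, distance 0.17). For Utf1 they were Idi1 (1.78 and 5.02 RPKM, distance 0.06) and Jag2 (1.94 and 4.46 RPKM, distance 0.15). For the other 5 tested genes the nearest gene lay at a distance of at most 0.0330. With 2 libraries this likeness says only that the levels are close.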

How the data were processed

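RNA of 1 control LNA and 1 Gata6-AS LNA library of PS10 cells was compared. The authors deposited RPKM per gene, per the file headers, with TopHat and mm9 named in the submitters' processing notes. The sources used here name no counting tool or annotation and do not say whether strand was used. For 2099 genes the authors also deposited log2 values with their difference and a p-value, without naming the test or the log2 scale.

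Differences are of log2(RPKM + 1) on the values as deposited, for genes averaging 1 RPKM or more, without small RNA features. Symbols on several rows (59) use the row with the highest mean. Of genes spanning under 3000 bp, 829 of 2094 and 883 of 2211 had RPKM values that are whole reads over their span at one depth, which gave the depth. The least reads behind a gene are the lowest whole numbers that fit both its values at one length up to 30000 bp (relative tolerance 3e-07 plus 0.0002 reads). Exact (Clopper-Pearson) 95% intervals of ratios and Poisson intervals of levels use them and cover counting error only, since PCR copies are not independent molecules. The scripts were tested on simulated data. With 1 library per group no test was made.

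The 10 genes, the 9 gene lists and the 5 marker lists were chosen with earlier results of these data known. Of 179 list entries, 170 matched a row, through RefSeq synonyms where needed; 8 let-7 precursors did not, and 1 entry was a second name of Trim71. Named were the 10 genes, overlapping genes, all XEN markers, up to 4 tested genes per list with the largest absolute difference, and the 2 genes nearest to each tested gene in level; others are said to be named after their values were seen, or were named after them as family members under 1 RPKM or as neighbours. Promoters are RefSeq windows (GRCm38.p6) and were not set against mm9 coordinates. Alternatives were other pseudocounts, scalings, filters and size rules. Python 3.11.15, numpy 2.4.6, pandas 2.3.3, scipy 1.17.1 and matplotlib 3.10.9 were used.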

Additional observations from a re-analysis of the deposited data

How the results depend on the processing

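The count of genes at least 2-fold higher was 1 (Utf1) with pseudocounts of 0.1 and 0.5 RPKM, after centring on the median, after scaling to the same summed RPKM and without a filter. It was 0 at a mean of at least 5 RPKM, where Utf1 is left out, and 3 under the 1.5-fold size rule. By the plain ratio without a filter, chosen after seeing the data, it was 2 (Utf1 and Lin28b), against 5.71% of 17247 genes. The count of genes at least 2-fold lower was 0 under each alternative run. The median difference of 0.53 was 0.60 with a pseudocount of 0.1 RPKM and 0.32 without a filter, where Pou5f1, Sox2 and Lin28b enter, and lay between 0.48 and 0.57 otherwise. Over all genes tested, 36 were 2-fold higher and 49 lower, against 92 and 81 with a pseudocount of 0.1 RPKM, 59 and 59 with 0.5 RPKM, and 31 and 55 after centring. Of 55 single-gene values under alternatives, 13 moved beyond the reach of the gene's counting interval, among them Sox2 after centring. None had another sign than reported, Sox2 at 0 aside. A pseudocount cannot change a sign, and summing the rows of a symbol changed no value, so these alternatives could not show one. Lin28b depended most on the pseudocount, at 0.62 with 1 RPKM and 1.47 with 0.1 RPKM. No paired analysis was possible because each group has 1 library. The spread between cultures is unknown, and depth limits what can be said of Pou5f1 and Sox2.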
